A study of Mus musculus with 9 samples.

Results

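The genes examined were 9 interferon-inducible GTPase genes of the mouse: 5 immunity-related GTPases (IRG: Gm12250, Iigp1, Igtp, Irgm1 and Irgm2) and 4 guanylate-binding proteins (GBP: Gbp2, Gbp3, Gbp4 and Gbp9). Each was read from the probe sets annotated to its symbol, taking the brightest probe set that names no other gene, and 6 of the 9 genes had such a probe set, of 19938 genes measured in the same way. The 6 were Gm12250, Iigp1 and Irgm1 among the IRG genes and Gbp3, Gbp4 and Gbp9 among the GBP genes. Igtp and Irgm2 were covered only by 1 probe set that names both, and Gbp2 only by 1 that also names Gbp2b, so these 3 genes entered no count below.

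RNA of 3 cell lines was measured on 9 whole-transcript expression arrays, 3 per line. MR20 cells are the 4T1 cells that survived methotrexate for up to 2 weeks, at a labelled 20 µg/ml (elsewhere the same figure stands in ng/ml), and were then kept without drug for 2 weeks. DR500 cells are the 4T1 survivors of doxorubicin raised stepwise to 500 ng/ml, for up to 2 weeks by the labels and longer by the written methods, and were then, by those methods, also kept without drug for 2 weeks; some DR500 labels name methotrexate, whereas the treatment protocol names doxorubicin. 4T1, the untreated parent of both and so their shared genetic background, is a triple-negative mammary carcinoma line of BALB/c mice, and its 3 arrays came from the same cell batch, grown beside MR20 without drug. Both selected lines are pools of surviving colonies, and the 3 arrays of a line are triplicate cultures of that pool, so that the p-values below measure only the spread between these cultures, which may be technical. The DR500 extraction protocol names a parental culture of its own, which was not analysed here, so selection with doxorubicin and a difference between culture or array batches cannot be told apart in the comparison of DR500 with 4T1.

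IRG and GBP proteins are GTPases that cells make in quantity after exposure to interferon. They assemble on the membranes of vacuoles that hold intracellular parasites or bacteria, and on bacteria themselves, and break these membranes open. Effector IRG proteins such as Iigp1 (also called Irga6) and Gm12250 (Irgb10) coat the vacuole, while the Irgm proteins sit on the cell's own membranes and hold the effectors inactive there. Their genes lie in clusters of near-identical copies, and their promoters are known for 2 short elements, the interferon-stimulated response element (ISRE), bound by factors that include Stat2, Irf9 and Irf1, and the gamma-activated site (GAS), known from genes that answer to interferon gamma.

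The bases directly upstream of the annotated start are shown because they hold these elements. RefSeq promoter windows (build GRCm38.p6) were given for 6 of the 9 genes, and the 250 bases before the start were searched on both strands for the ISRE core GAAANNGAAA and for the GAS core TTCNNNGAA, overlapping matches included. An ISRE core was found in 6 of the 7 windows of these genes, against 2.98% of all 32851 windows of the same length, and each of the 6 genes had at least 1 such window. A GAS core was found in 3 of the 7 windows, those of Gm12250, Igtp and Irgm2, against 7.02% of all windows. Below, the last 100 bases before the start are printed in the direction of the gene, with the ISRE cores in capitals.
Gm12250 (chr11:58183743-58183842, plus strand): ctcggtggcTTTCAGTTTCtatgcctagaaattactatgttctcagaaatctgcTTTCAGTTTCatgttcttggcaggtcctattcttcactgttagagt
Irgm1 (chr11:48871421-48871520, minus strand): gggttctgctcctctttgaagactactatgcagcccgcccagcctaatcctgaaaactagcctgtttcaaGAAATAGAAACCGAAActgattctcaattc
Igtp (chr11:58199456-58199555, plus strand): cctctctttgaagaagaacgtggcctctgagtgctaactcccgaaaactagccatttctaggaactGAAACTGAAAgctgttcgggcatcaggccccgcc
Irgm2 (chr11:58214877-58214976, plus strand): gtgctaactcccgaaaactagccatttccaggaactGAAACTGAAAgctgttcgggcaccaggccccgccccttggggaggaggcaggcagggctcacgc
Gbp3 (chr3:142559944-142560043, plus strand): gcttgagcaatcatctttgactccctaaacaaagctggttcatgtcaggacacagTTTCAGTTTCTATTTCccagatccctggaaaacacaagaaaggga
Gbp2 (chr3:142620563-142620662, plus strand): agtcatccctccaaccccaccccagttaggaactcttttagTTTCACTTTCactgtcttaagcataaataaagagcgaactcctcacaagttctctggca
Gm12250 had 2 separate ISRE cores, whose upstream ends lay 91 and 46 bases before the start, both on the strand opposite to the gene. Irgm1 had 2 overlapping cores, 30 and 24 bases before the start, on its own strand. Gbp3 had 2 overlapping cores, 45 and 39 bases before the start, on the opposite strand, and a second annotated start of Gbp3 had none. In Igtp and Irgm2 the core lay 34 and 64 bases before the start, in each case with a GAS core just upstream of it. Gbp2 had 1 core 59 bases before the start.

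Across the series, epithelial markers stood at close levels in MR20 and 4T1 and far lower in DR500. The mean log2 value of 8 epithelial markers was 11.93 to 11.95 on the MR20 arrays, 8.33 to 8.51 on the DR500 arrays and 11.82 to 11.89 on the 4T1 arrays. In DR500, 7 of the 8 fell relative to 4T1, among them Epcam, an epithelial adhesion protein, at -4.19 and Cdh1, which encodes E-cadherin, at -3.84 (log2 change). Mesenchymal markers averaged 7.25 to 7.39 in MR20, 7.90 to 8.02 in DR500 and 7.25 to 7.42 in 4T1, and macrophage and leukocyte markers averaged 6.36 to 6.37 in MR20, 6.43 to 6.48 in DR500 and 6.02 to 6.05 in 4T1. In each selected line 2 of the 8 leukocyte markers rose, Cd68 and Cd14. Ptprc, which encodes the pan-leukocyte protein CD45, differed from 4T1 by 0.01 in MR20 and 0.07 in DR500 (limma, adjusted p = 0.957 and 0.432). None of the 7 T and NK cell markers passed the test in either line, in limma or at an unadjusted p under 0.05 in MR20, whereas 2 did at that unadjusted p in DR500. Whether the loss of epithelial markers has a part in the DR500 values below was not tested.

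All 6 measured IRG and GBP genes rose in MR20 relative to 4T1, by 5.62-fold to 19.2-fold. Every change was beyond 2-fold, and on no array of MR20 did any of the 6 genes read as low as on a 4T1 array. Of all genes, 15.4% were higher in MR20 at an adjusted p under 0.05 and 1.41% were higher by more than 2-fold. None of the 6 was lower, also at an unadjusted p under 0.05, where 17.1% of all genes were lower at the adjusted threshold. The median change of the 6 genes was 3.32 on the log2 scale, against -0.01 over all genes. In cultures measured in bulk, more expressing cells and more RNA per cell cannot be told apart.

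Among the IRG genes, the effector Gm12250, whose protein attacks bacterial membranes, changed most. It read 9.76, 9.77 and 9.47 on the 3 MR20 arrays, against 5.39, 5.44 and 5.37 on the 4T1 arrays (log2 values). The MR20 arrays all stood high and the lines were far apart, with the third MR20 array slightly below the other two. The log2 change was 4.27 ± 0.09 (SE), 19.2-fold, with an adjusted p of 7.51e-10 in limma, and Gm12250 ranked 7 among all genes by size of rise.

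Iigp1 encodes the effector that coats the vacuole of Toxoplasma. Its log2 values were 6.93, 7.02 and 7.03 in MR20, against 3.88, 3.92 and 4.18 in 4T1. Every MR20 array exceeded every 4T1 array by a wide margin. The change was 3.00 ± 0.11 on the log2 scale, or 7.98-fold (limma, adjusted p = 2.47e-08). In 4T1, Iigp1 stood above only 9.5% of genes, so that the size of this rise may be read too small.

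Irgm1, a regulatory IRG of lysosomal and Golgi membranes, read 11.24, 11.22 and 11.20 in MR20, against 8.59, 8.48 and 8.61 in 4T1. The MR20 arrays were nearly equal, with the smallest spread of any of the 6 genes in that line (SD 0.02). The log2 change was 2.66 ± 0.09, or 6.34-fold (limma, adjusted p = 1.57e-08).

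Among the GBP genes, Gbp3 and Gbp4 rose by similar factors and Gbp9 by less. Gbp3, from the cluster on chromosome 3, read 10.15, 9.99 and 9.96 in MR20, against 6.29, 6.46 and 6.42 in 4T1. All MR20 arrays lay above all 4T1 arrays. The log2 change of Gbp3 was 3.64 ± 0.10, or 12.5-fold (limma, adjusted p = 5.93e-09).

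Gbp4 and Gbp9 stand side by side in the cluster on chromosome 5. Gbp4 read 10.53, 10.37 and 10.47 in MR20, against 6.50, 6.82 and 6.78 in 4T1. The first 4T1 array was the lowest, and the lines did not overlap. The log2 change of Gbp4 was 3.75 ± 0.12, or 13.5-fold (limma, adjusted p = 1.12e-08).

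For Gbp9 the MR20 arrays gave 9.69, 9.49 and 9.60, against 7.07, 7.10 and 7.14 on the 4T1 arrays. Again every MR20 array was above every 4T1 array. Its rise, 2.49 ± 0.12 on the log2 scale or 5.62-fold (limma, adjusted p = 2.58e-07), was the smallest of the 6.

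**Figure D1:**
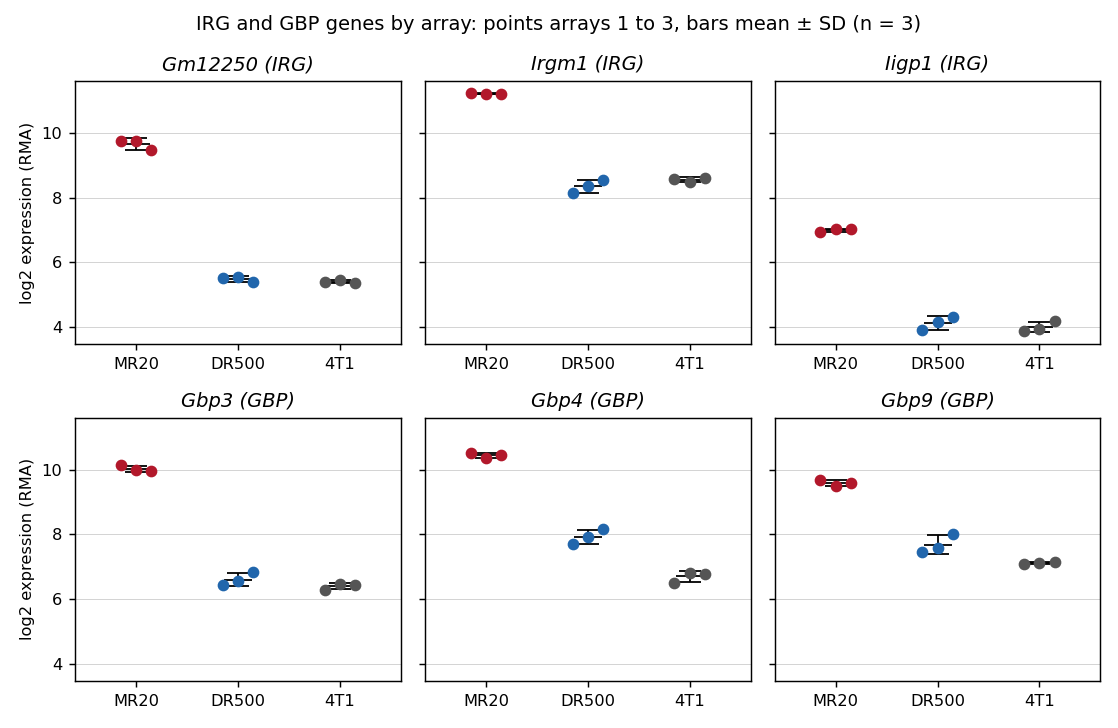
Log2 expression (y axis) of the 6 measured IRG and GBP genes on each array of MR20, DR500 and 4T1 (x axis), with points for arrays 1 to 3 and black bars for the mean ± SD (n = 3). In all 6 panels the MR20 points stand above the other lines, and only for Gbp4 and Gbp9 do all DR500 points also stand above 4T1.

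In DR500, 2 of the 6 genes rose relative to 4T1, Gbp4 and Gbp9, and the other 4 did not pass the test. Only Gbp4 changed by more than 2-fold. Of all genes, 20.2% were higher in DR500 and 2.47% were higher by more than 2-fold, so that 2 of 6 is close to the share among all genes and is read gene by gene. None of the 6 fell in limma, where 21.3% of all genes were lower and 3.09% were lower by more than 2-fold, and 1 of them, Irgm1, was lower at an unadjusted p under 0.05. The comparison used the same 4T1 arrays as that of MR20. The values of the whole table bear on small changes here: 48.8% of the called genes were higher in DR500 as deposited, 61.8% after repeating the quantile normalization and 62% when every array was centred at its own median, and the median change of all genes was 0.07 as deposited and 0.12 under both other scalings. Gbp4 and Gbp9 were called higher under each of these scalings.

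Gbp4 read 7.70, 7.92 and 8.15 on the DR500 arrays, against 6.50, 6.82 and 6.78 on the 4T1 arrays. All 3 DR500 arrays were above all 3 of 4T1. Its change was 1.23 ± 0.12 on the log2 scale, or 2.34-fold (limma, adjusted p = 1.52e-05). The Gbp9 values in DR500 were 7.45, 7.60 and 8.003, against 7.07, 7.10 and 7.14 in 4T1. The third DR500 array stood highest, and the lines did not overlap. Gbp9 changed by 0.58 ± 0.12, or 1.49-fold (limma, adjusted p = 0.00299).

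The third GBP gene, Gbp3, read 6.42, 6.55 and 6.83 in DR500, against 6.29, 6.46 and 6.42 in 4T1. The lowest DR500 array lay within the range of 4T1. The difference was 0.21, with a 95% interval of -0.02 to 0.44 (limma, adjusted p = 0.136). Without the first DR500 array it was 0.30 and passed the test (limma, adjusted p = 0.0372), and without the third it was 0.09 (adjusted p = 0.386).

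None of the 3 IRG genes passed in DR500. Gm12250 read 5.52, 5.54 and 5.38 in DR500, against 5.39, 5.44 and 5.37 in 4T1. These ranges overlapped, and the difference was 0.08 (95% interval -0.11 to 0.27, adjusted p = 0.486 in limma). Iigp1 gave 3.90, 4.16 and 4.30 in DR500, against 3.88, 3.92 and 4.18 in 4T1. The arrays of the lines again overlapped, with a difference of 0.13 (95% interval -0.11 to 0.37, limma adjusted p = 0.373). Iigp1 stood low in both lines, above only 10.2% of genes in DR500 and 9.5% in 4T1. A fall could hence be missed and a small rise read too small.

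Irgm1 stood lower in DR500 on average, at 8.15, 8.36 and 8.54, against 8.59, 8.48 and 8.61 in 4T1. Array 3 of DR500 fell within the range of 4T1 and the other two below it. The difference of -0.21 (95% interval -0.41 to -0.01) had an adjusted p of 0.0935 in limma. Without array 3 of DR500 it was -0.30 and passed the test (adjusted p = 0.0114), and it also passed, at -0.21 (adjusted p = 0.0474), with a prior variance that follows mean expression. Without array 1 of DR500 it was -0.11 (limma, adjusted p = 0.29), and after repeated quantile normalization it was -0.10 (adjusted p = 0.289).

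The DR500 arrays differed from each other in these genes more than those of the other lines. The median SD of the 6 genes was 0.21 in DR500, 0.09 in MR20 and 0.08 in 4T1, while the median SD over all genes was 0.11, 0.08 and 0.07 in the same order. For 5 of the 6 genes the first DR500 array was the lowest and the third the highest, Gm12250 being the exception. The 6 genes lay on average 0.17 below the line's mean on the first DR500 array and 0.18 above it on the third. Over all genes the first DR500 array deviated from its line's mean by 0.15 (root mean square), against 0.08 to 0.12 on the other 8 arrays.

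DR500 was lower than MR20 in all 6 genes. Every change was beyond 2-fold and every DR500 array lay below every MR20 array. Of all genes, 20.6% were lower in DR500 than in MR20 and 3.23% were lower by more than 2-fold. None of the 6 was higher, also at an unadjusted p under 0.05, where 21.2% of all genes were higher at the adjusted threshold. Gm12250 differed most, with a log2 change of -4.19 ± 0.09, or 18.2-fold lower in DR500 (limma, adjusted p = 1.84e-10). Gbp9 differed least, at -1.91 ± 0.12, or 3.77-fold lower (limma, adjusted p = 5.99e-07). The other 4 genes lay between these, with Gbp3 at -3.43, Irgm1 and Iigp1 at -2.87 and Gbp4 at -2.53 on the log2 scale. Permuting 3 arrays with 3 exactly yields no two-sided p under 0.1, so for single genes the tests rest on the variance that limma shares across all genes.

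The IRG and GBP genes overlapped in their change in MR20, and in DR500 the GBP genes had the higher median. In MR20 the changes of the 3 IRG genes ran over 2.66 to 4.27 (median 3.00) and those of the 3 GBP genes over 2.49 to 3.75 (median 3.64) on the log2 scale. In DR500 relative to 4T1, the IRG genes ran over -0.21 to 0.13 (median 0.08) and the GBP genes over 0.21 to 1.23 (median 0.58). The 95% interval of Gbp3 overlapped those of all 3 IRG genes. That of Gbp9 (0.31 to 0.85) overlapped that of Iigp1 (-0.11 to 0.37), and that of Gbp4 overlapped none of the IRG intervals. Without array 3 of DR500, Gbp3 (0.09) stood below Gm12250 (0.13). The difference between the classes was not tested, as genes are not replicates and the lists were chosen with earlier results of these data known. In DR500 relative to MR20 the medians were -2.87 for IRG and -2.53 for GBP.

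The probe sets that name several genes gave values for the 3 genes without their own, which cannot be assigned to either gene of a pair. The probe set of Irgm2 and Igtp, both regulatory IRG genes, read 10.51, 10.46 and 10.44 in MR20, 6.70, 6.88 and 6.88 in DR500 and 6.88, 6.68 and 6.92 in 4T1. MR20 stood apart and DR500 overlapped 4T1. Its change was 3.64 ± 0.08 in MR20 (limma over all 35556 probe sets, adjusted p = 6.44e-08) and -0.01 ± 0.08 in DR500 (adjusted p = 0.947), with a 95% interval of -0.20 to 0.18 in DR500.

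The probe set of Gbp2, a GBP that marks vacuoles and bacteria, and of its neighbour Gbp2b gave 10.40, 10.30 and 10.31 in MR20, 8.44, 8.66 and 8.61 in DR500 and 7.55, 7.67 and 7.69 in 4T1. No arrays of the 3 lines overlapped. The change relative to 4T1 was 2.70 ± 0.07 in MR20 (limma, adjusted p = 1.54e-07) and 0.93 ± 0.07 in DR500 (adjusted p = 2.8e-05). A further probe set names 6 GBP genes of the chromosome 5 cluster, Gbp4 and Gbp9 among them, and changed by 3.35 in MR20 and 0.69 in DR500 (limma, adjusted p = 1.36e-07 and 4.48e-04). Probes of near-identical copies can bind each other's RNA, and how far this holds for the single-gene probe sets was not tested.

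**Figure D2:**
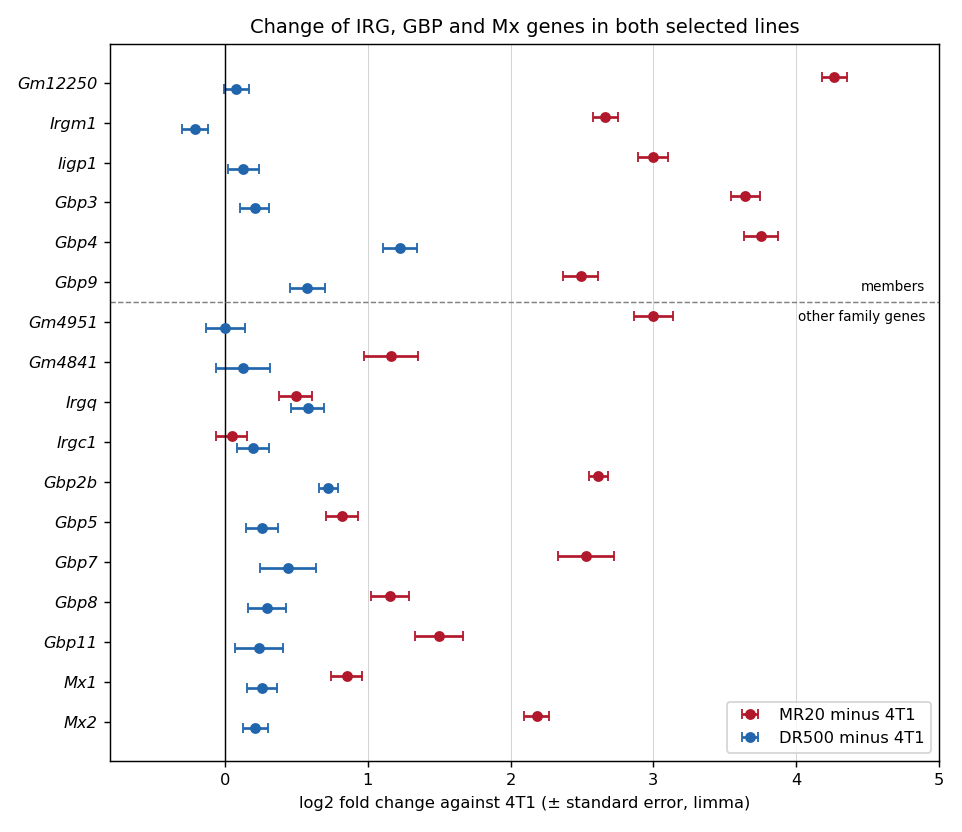
Log2 fold change against 4T1 (x axis, points with ± standard error from limma) of the 6 measured members, above the dashed line, and of 11 other IRG, GBP and Mx genes, below it, for MR20 and DR500. All members lie between 2.49 and 4.27 in MR20, whereas in DR500 the 3 IRG members lie within 0.21 of 0 and Gbp4 reaches 1.23.

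Most of the other family genes measured also rose in MR20. Of 20 further IRG, GBP, GVIN and Mx genes, 11 had a probe set of their own. In MR20, 10 of these rose (median of the 11: 1.16), 7 of them by more than 2-fold. Among all genes the shares were 15.4% higher and 1.41% higher by more than 2-fold, with a median change of -0.01. Gm4951 and Gm4841, IRG genes next to Iigp1, changed by 3.00 and 1.16 on the log2 scale. Gbp2b and Gbp7, on either side of Gbp3, changed by 2.61 and 2.53. Gbp11 and Gbp8 of the chromosome 5 cluster changed by 1.50 and 1.16, and Mx2, an antiviral dynamin-like GTPase, by 2.18. Gm4951, Gm4841 and Mx2 averaged 4.54, 4.32 and 3.94 in 4T1, against a median gene at 6.98. The size of their rises may hence be read too small. Irgc1, an IRG gene known for expression in the testis, was the gene that did not pass (0.05, limma adjusted p = 0.832).

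In DR500, 2 of these 11 genes rose in limma, close to the 20.2% of all genes, and 7 were higher at an unadjusted p under 0.05, as were 5000 of all 19938 genes. None of the 11 was lower in limma or at that unadjusted p. The 2 were Gbp2b (0.73 ± 0.07, adjusted p = 9.90e-06) and Irgq (0.58 ± 0.12, adjusted p = 0.00215), an IRG relative that lacks the usual GTP-binding residues. Gm4951 gave 0.0049 and Gm4841 gave 0.13 in DR500, while the 5 further GBP genes ran over 0.24 to 0.73. The median of the 11 was 0.26 in DR500, against 0.07 over all genes. These counts leave out the probe sets that name several genes. Of those, the ones of Tgtp1 and Tgtp2, of Ifi47 and of Gvin1 fell in DR500, while those of the GBP genes rose, with values given further below.

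Interferon and its signalling genes stand upstream of the GTPases. Of 16 such genes measured, 9 rose and 3 fell in MR20, and 9 rose and 3 fell in DR500. Of all genes, 15.4% rose and 17.1% fell in MR20, and 20.2% rose and 21.3% fell in DR500, so that the falls were close to the shares among all genes. Of the ISRE-binding factors, 3 rose in MR20 by more than 2-fold, with Stat2 at 2.19 ± 0.08, Irf9 at 1.69 ± 0.06 and Irf1 at 1.45 ± 0.07 on the log2 scale, while Irf8, another interferon regulatory factor, fell by 0.79 (limma, adjusted p = 4.39e-04). In DR500 the changes of Irf9 (0.39, limma adjusted p = 4.47e-04) and Irf1 (0.24, adjusted p = 0.0161) passed the test, and that of Stat2 did not (0.18, adjusted p = 0.0939). Usp18, the protease that removes Isg15 and dampens the type I interferon receptor, rose by 4.18 in MR20 and fell by 0.58 in DR500 (limma, adjusted p = 1.84e-10 and 4.06e-05). Ifnb1 and Ifng, the interferon genes read here, did not pass in either line. Ifnb1 gave 0.07 in MR20 and -0.0045 in DR500, and Ifng gave -0.02 and 0.09 in the same order. Ifnb1 averaged 4.26 in MR20 and 4.19 in DR500 and 4T1, against a median gene at 6.93 to 6.98. At so low a level a change in its RNA could be missed, and interferon protein was not measured on the arrays.

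The receptor genes went different ways. Ifnar1, a chain of the type I interferon receptor, fell by 0.63 in MR20 and rose by 0.34 in DR500, and Ifngr1, the ligand-binding chain of the interferon gamma receptor, gave 0.19 in MR20 (limma, adjusted p = 0.0982) and fell by 0.73 in DR500. Jak1, a kinase of both receptors, rose by 0.39 in MR20 and by 0.94 in DR500.

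**Figure D3:**
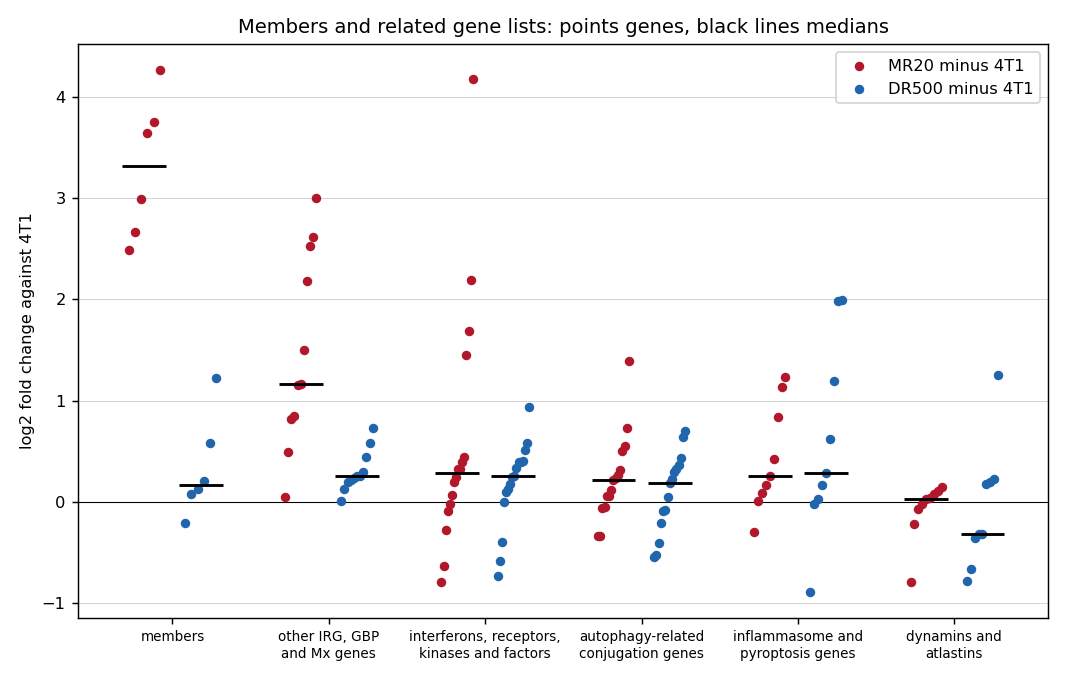
Log2 fold change against 4T1 (y axis) of each gene of the members and of 5 related lists (x axis), for MR20 and DR500, with black lines for medians. The members have the highest median in MR20, 3.32, while the medians of the lists other than the IRG, GBP and Mx genes stay between 0.02 and 0.28 in that line.

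Conjugation genes of the autophagy machinery, which help to load IRG and GBP proteins on vacuoles, changed by less than 2-fold with 1 exception. Of 15 such genes and ubiquitin readers, 7 rose and 2 fell in MR20, and 8 rose and 4 fell in DR500, where 15.4% and 17.1% of all genes rose and fell in MR20 and 20.2% and 21.3% did in DR500. Only Trim21, an antibody-binding ubiquitin ligase, passed 2-fold, with 1.39 ± 0.06 in MR20 and -0.09 ± 0.06 in DR500 (limma, adjusted p = 9.42e-08 and 0.284). Atg5, part of the conjugating complex, gave 0.22 in MR20 (adjusted p = 0.074) and fell by 0.54 in DR500 (adjusted p = 3.68e-04).

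Inflammasomes, the protein complexes that set off pyroptosis and that GBP proteins help to activate, had genes that rose in both lines. Of 9 inflammasome and pyroptosis genes, 5 rose and 1 fell in MR20, and likewise 5 rose and 1 fell in DR500, where 15.4% and 17.1% of all genes rose and fell in MR20 and 20.2% and 21.3% did in DR500. Casp1, the caspase that cuts interleukin 1 beta, rose by 1.14 ± 0.12 in MR20 and by 1.99 ± 0.12 in DR500. Aim2, a sensor of cytosolic DNA, rose by 1.23 ± 0.20 in MR20 and by 1.99 ± 0.20 in DR500, and Casp4, the mouse caspase-11 that senses bacterial lipopolysaccharide, by 0.84 ± 0.07 and 1.19 ± 0.07 in the same order. These 3 genes stood higher in DR500 than in MR20, Casp1 by 0.86, Aim2 by 0.76 and Casp4 by 0.35 (limma, adjusted p = 1.77e-04, 0.0107 and 0.00304). Nlrp3 of the same list also stood higher in DR500 than in MR20, by 0.92 (limma, adjusted p = 2.25e-05). Il1b and Il18, which encode cytokines that Casp1 cuts, stood lower in DR500 than in MR20, at -1.14 and -0.39 (limma, adjusted p = 4.92e-07 and 0.0369). The 5 genes that rose differed between the lines: Il1b and Il18 rose only in MR20, and Nlrp3 and Gsdmd only in DR500. The 1 gene that fell was Nlrp3 in MR20 and Il1b in DR500. Of 9 measured dynamins and atlastins, large GTPases that are not known for interferon control, none rose in MR20 in limma or at an unadjusted p under 0.05 and 2 fell, Dnm1 by 0.79 and Mfn1 by 0.22. In DR500, 3 of the 9 rose and 5 fell (median -0.32), against 20.2% and 21.3% of all genes. Dnm1 rose by 1.25 there and was the only one of the 9 beyond 2-fold.

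Most genes that flank the clusters did not share the rise. Of the 30 nearest protein-coding genes outside the lists, 3 on each side of each cluster in the RefSeq gene order, 25 were measured, of which 4 rose and 5 fell in MR20, and 2 rose and 12 fell in DR500. The 4 that rose in MR20 are close to the 15.4% among all genes, and 17.1% of all genes fell there, while in DR500 20.2% of all genes rose and 21.3% fell. The exception in size, 1 of the 4 that rose in MR20, was Gm12185, listed in RefSeq also as Irgb2b1 and not on the family list. It was counted as flanking because Irgm1 was taken alone. In gene order it lies inside a run of IRG genes, between Irgm1 and Tgtp1, Tgtp2 and Ifi47. It read 7.07, 7.07 and 6.96 in MR20, 3.62, 3.73 and 3.93 in DR500 and 3.96, 4.18 and 3.92 in 4T1. MR20 stood far above the other lines, with a change of 3.01 ± 0.09 (limma, adjusted p = 1.08e-08). The level of Gm12185 in 4T1 was low, so that the size of this rise may be read too small. Kyat3, a kynurenine aminotransferase next to Gbp2, had the lowest change of the flanking genes in MR20, -1.31.

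**Figure D4:**
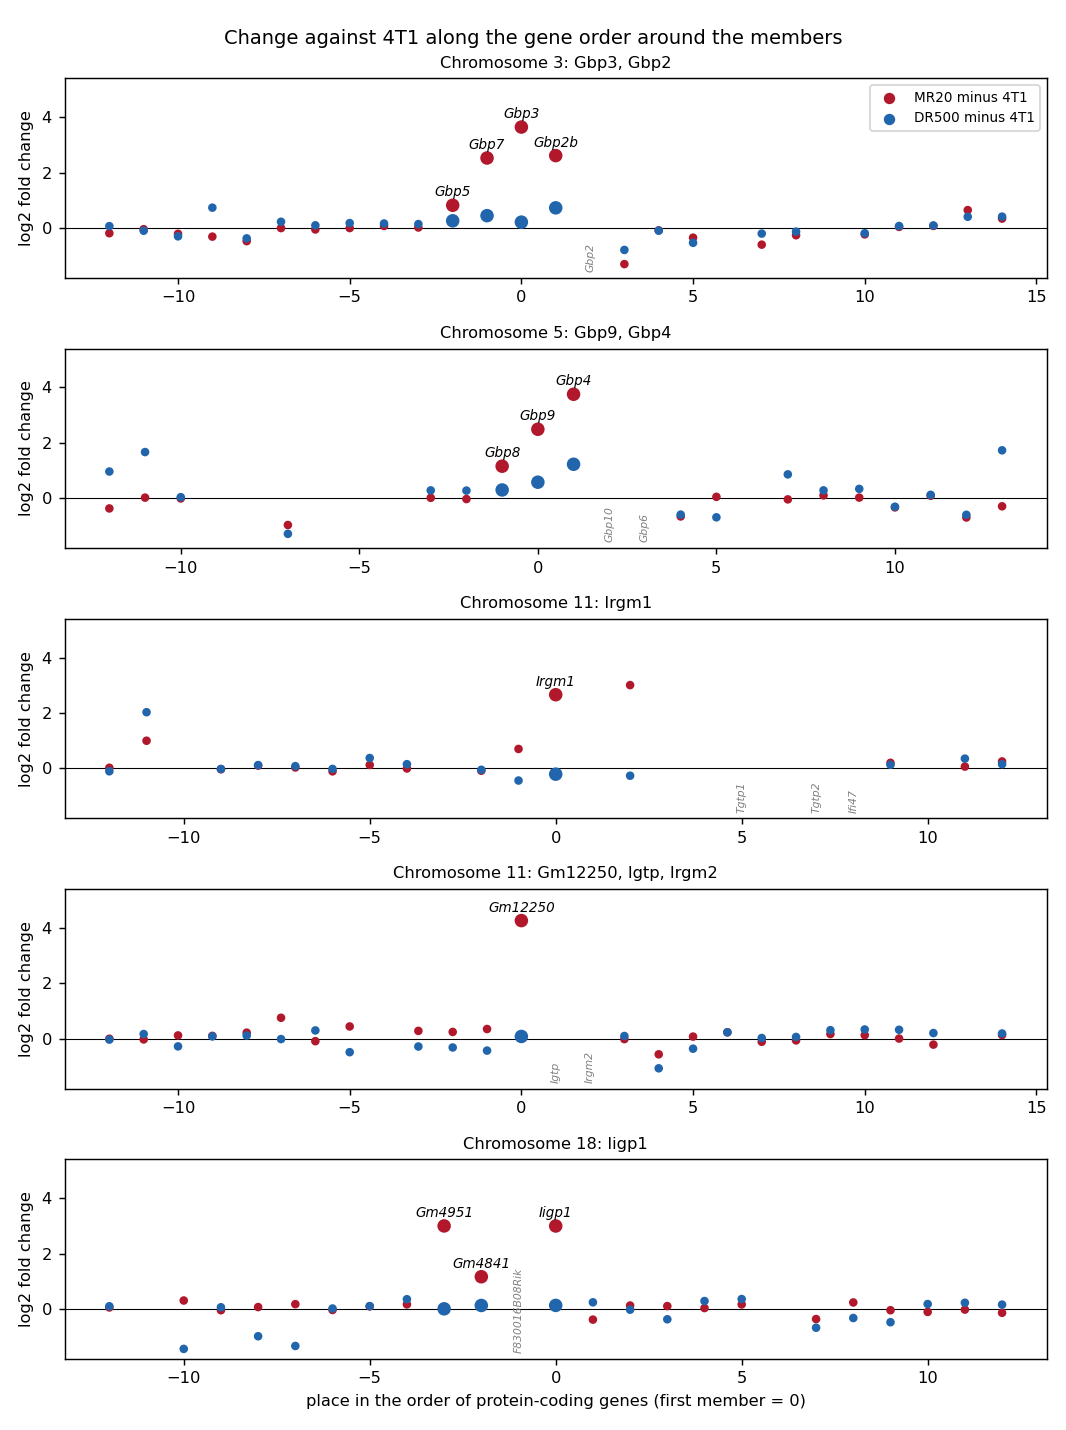
Log2 fold change against 4T1 (y axis) of genes in their order along the chromosome (x axis, counted in protein-coding genes from the first member) around the 5 places where the members lie, for MR20 and DR500. Large points mark the listed IRG and GBP genes and grey names those without a probe set of their own. The large points rise to between 0.82 and 4.27 in MR20 while most flanking genes stay near 0.

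The genes whose pattern was nearest to each member were found by the root mean square difference over the 6 MR20 and DR500 arrays, each gene taken relative to its own 4T1 mean. Rtp4, an interferon-induced chaperone of receptors, was nearest to Gm12250 (0.18) and Oasl2, an oligoadenylate synthetase-like gene, was nearest to Gbp3 (0.15). Irgm1 was nearest to Gm12185 (0.25) and Iigp1 to Vtcn1, a B7 family ligand that restrains T cells (0.23). Gbp4, which rose in both lines, was nearest to Ltf, which encodes the iron-binding lactotransferrin (0.25) and changed by 3.71 in MR20 and 0.92 in DR500. Gbp9 was nearest to AA467197 (0.15), which changed by 2.39 and 0.52 in the same lines. Among the members themselves, Iigp1 and Irgm1 were the closest pair (0.34), and Gm12250 and Gbp9 the farthest apart (1.33).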

How the data were processed

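RNA of 4T1, MR20 and DR500 cells (3 cultures each) was hybridised to 1-colour Affymetrix whole-transcript mouse arrays. The authors deposited log2 values of 35556 probe sets after robust multi-array averaging with the affy package, as the submitters' notes and methods describe; limma is named there too, and versions were not given in the sources used here. RMA levels of different probe sets were compared only to mark genes of low signal. Array medians ran over 6.24 to 6.38. Of the probe sets, 21789 name 1 gene, 1621 several and 12146 none; symbols were updated by Entrez ID and the brightest single-gene probe set was kept for 19938 genes. One linear model with a mean per line was fitted to all 9 arrays (limma 3.58.1, R 4.3.3, eBayes), and p-values were adjusted by Benjamini-Hochberg over all genes; a gene was called at an adjusted p under 0.05, and 2-fold is given beside it. The script was tested on simulated data. All 9 members, the nearest gene to each, list genes beyond 2-fold and flanking genes were to be named; others were named after their values were seen. The members and lists were chosen with earlier results of these data known. Alternatives changed the arrays fitted, dim genes, normalization, probe set choice, variance prior, replicate block and each array in turn. Replicate numbers were not treated as pairs. Gene order and promoters are RefSeq's (GRCm38.p6). The number of arrays limits the precision.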

Additional observations from a re-analysis of the deposited data

Results flagged for a closer look

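The change against 4T1 differed between the 2 selected lines for each of the 6 measured genes, by the limma contrast of DR500 with MR20. DR500 minus MR20 was -4.19 for Gm12250, -2.87 for Iigp1, -2.87 for Irgm1, -3.43 for Gbp3, -2.53 for Gbp4 and -1.91 for Gbp9 on the log2 scale.

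Probe sets that name several genes entered no count of members, and all 9 of them from these families rose in MR20 relative to 4T1. In the fit per gene, 15.4% of all genes were higher in MR20 and 21.3% were lower in DR500. The probe set of Irgm2 and Igtp changed by 3.64, that of Gbp2 and Gbp2b by 2.70 and that of 6 GBP genes by 3.35. The pair of probe sets of Tgtp1 and Tgtp2, T cell-specific GTPases of the IRG family, changed by 4.87 and 4.82 in MR20 and fell by 1.49 and 1.51 in DR500. The probe set of Ifi47, an IRG gene, and of the odorant receptor gene Olfr56 changed by 2.78 in MR20 and fell by 2.00 in DR500. The 3 probe sets of Gvin1, a very large interferon-inducible GTPase, and its copies changed by 1.14, 1.36 and 1.17 in MR20 and fell by 2.66, 2.49 and 3.02 in DR500. All these changes had an adjusted p under 0.05 in limma over all probe sets, and none can be assigned to 1 gene. In DR500 the Gvin1, Tgtp and Ifi47 probe sets fell, while those of the GBP genes rose, by 0.93 for Gbp2 with Gbp2b and 0.69 for the 6 genes.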

How the results depend on the processing

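All 6 genes stayed called higher in MR20 than in 4T1 and lower in DR500 than in MR20 under each of the 17 alternatives, and Gbp4 and Gbp9 stayed called higher in DR500 than in 4T1. The fold changes of the 6 genes kept their sign throughout. The median change of all genes in MR20 relative to 4T1 did not, at -0.01 as deposited and 0.0046 after repeated quantile normalization. The number of the 6 called lower in DR500 than in 4T1, 0, was 1 (Irgm1) with the trended and robust prior and 0 to 1 when an array was left out. The GBP median in that comparison, 0.58, ran over 0.42 to 0.69 with an array left out, lowest without DR500 replicate 3. Gbp3 in DR500 ran over 0.09 to 0.30 and Irgm1 over -0.30 to -0.10 over all alternatives. Over all genes, 4034 were higher in DR500 than in 4T1, against 6096 after repeated quantile normalization. With all 35556 probe sets tested, 6981 were lower in DR500 than in 4T1, against 4239 of the 19938 genes. Lower in DR500 than in MR20 were 6270, against 4114 genes. Higher in DR500 than in 4T1 were 4708, against 4034 genes. The counts over probe sets are out of 35556 and those over genes out of 19938, so that the raw numbers are not on 1 scale. Beyond this, why the counts differed was not tested. With the replicate number as a block, the counts of members stayed at 6, 2 and 6, and 3942 genes were higher in DR500 than in 4T1. The numbers do not pair the arrays: deviations of same-numbered arrays correlated at -0.31 to 0.33, and in no comparison did every array correlate best with its own number.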
